A study of Mus musculus with 16 samples.

Results

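Long noncoding genes that carry small nucleolar RNAs (snoRNAs) in their introns were followed through proteasome inhibition in mouse fibroblasts. The genes were Snhg1, Snhg3, Snhg5, Snhg7, Snhg8, Snhg12 and Gas5. They were picked by gene symbol, all 7 were found, and the deposited tables list 23356 genes. The list was drawn up with earlier results of these data in view, so the levels below are a description and carry no test.

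All 16 libraries were made from the mouse fibroblast line NIH3T3, with DD-sfGFP stably expressed in each group. DD-sfGFP joins superfolder GFP to a destabilizing domain, a form of FKBP12 that the proteasome degrades when its stabilizing ligand is absent, and by the study's methods the transfected cells were sorted for high GFP. The study kept that ligand in its cultures, and whether the bortezomib cultures held it is not given in the sources used here. Controls (0 min) were compared with cells harvested after 45, 135 or 405 min of bortezomib, which blocks the proteasome, with 4 libraries in each group. The labels give neither the dose nor a vehicle control at the later times, and they do not say whether replicates were separate cultures, so the spread between them may be technical.

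snoRNAs guide the chemical modification of ribosomal and spliceosomal RNA. Box C/D snoRNAs direct ribose methylation and box H/ACA snoRNAs direct pseudouridylation, and most of them are cut out of the introns of a host transcript after splicing. The spliced exons of the long noncoding hosts have no known long reading frame. Several of these transcripts begin with a terminal oligopyrimidine (TOP) tract like that of ribosomal protein mRNAs, and several are loaded onto ribosomes and then removed by nonsense-mediated decay.

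The annotation places a total of 27 snoRNA copies within 6 of the 7 hosts, on NCBIM37 (mm9). Gas5 (chr1:162964553-162968670, plus strand) holds 9, Snhg1 (chr19:8797986-8800932, plus) 8, Snhg12 (chr4:131864593-131866939, plus) 4, and Snhg3 (chr4:131903929-131909601, minus), Snhg5 (chr9:88415894-88417721, minus) and Snhg7 (chr2:26492697-26495764, minus) 2 each. No entry for Snhg8 was used from that annotation. In that annotation 4 of the 27 copies lie in an intron alone, and 23 overlap an exon of at least 1 annotated transcript of the host. Box C/D snoRNAs from 2 hosts, both among those 23, show what the host loci carry, with box C (TGATGA) and box D (CTGA) in capitals:
Snord99 (host Snhg12): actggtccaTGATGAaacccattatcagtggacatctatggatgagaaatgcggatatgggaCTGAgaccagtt
Snord47 (host Gas5): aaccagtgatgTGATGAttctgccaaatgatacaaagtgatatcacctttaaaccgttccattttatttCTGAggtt
Snord99 lies at chr4:131866606-131866679 and Snord47 at chr1:162968213-162968289, both on the plus strand of NCBIM37. The study's methods describe purification of poly(A) RNA, without saying for which libraries, and the snoRNAs themselves were hardly seen. Of 109 snoRNA genes listed, 30 had any fragment, with 580 fragments over all 16 libraries. Snord99 and Snord47 had 0 in every library. The results therefore concern the host transcripts.

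The start regions are shown because the hosts are known for TOP-like starts. Each line runs from 40 bases before to 30 bases into the RefSeq transcript (GRCm38.p6), and capitals mark the longest unbroken run of C and T letters that begins with C within 10 bases of the start, read on the sense strand:
Snhg12: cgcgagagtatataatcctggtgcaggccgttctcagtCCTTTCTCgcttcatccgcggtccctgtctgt
Snhg5: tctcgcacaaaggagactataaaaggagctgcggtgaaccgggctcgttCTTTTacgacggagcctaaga
Snhg1: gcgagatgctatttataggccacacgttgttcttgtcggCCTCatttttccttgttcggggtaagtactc
Gas5 (first start): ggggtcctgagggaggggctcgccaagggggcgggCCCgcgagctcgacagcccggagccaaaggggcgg
Gas5 (second start): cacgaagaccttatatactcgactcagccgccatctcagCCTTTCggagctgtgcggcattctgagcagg
Snhg7: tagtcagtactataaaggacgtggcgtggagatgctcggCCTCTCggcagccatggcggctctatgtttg
Snhg8: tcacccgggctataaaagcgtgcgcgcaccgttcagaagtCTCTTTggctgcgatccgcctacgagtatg
Snhg3: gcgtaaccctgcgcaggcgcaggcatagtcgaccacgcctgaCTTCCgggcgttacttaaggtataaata
These windows lie at chr4:132308638-132308707 (plus strand, Snhg12), chr9:88522868-88522937 (minus strand, Snhg5), chr19:8723447-8723516 (plus strand, Snhg1), chr1:161034561-161034630 (plus strand, Gas5, first start), chr1:161035126-161035195 (plus strand, Gas5, second start), chr2:26640215-26640284 (minus strand, Snhg7), chr3:123508307-123508376 (minus strand, Snhg8) and chr4:132353657-132353726 (minus strand, Snhg3). A run of 5 or more bases was present at 6 of the 8 annotated starts of the hosts, at 27.9% of all 32851 starts in the table and at 51.2% of the 80 starts of ribosomal protein genes. Snhg12 had the longest, with 8 bases, a length reached at 6.96% of all starts. The runs of Snhg7, Snhg8 and the second Gas5 start were 6 bases long. The letters TATAA, searched on both strands between 40 and 21 bases upstream and so apart from the run, were found at 5 of the 8 host starts and at 4.01% of all starts. Snhg7, Snhg8 and Snhg12 had them on the sense strand, and Snhg1 and the second Gas5 start only on the opposite strand. In the Snhg5 window the same letters lie across the downstream edge of the searched stretch and were not counted. A match is a description of letters and not of a used start site.

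The libraries fell into 2 kinds. The share of fragments in ribosomal protein genes (symbols beginning Rpl or Rps and a number, a pattern that also takes in 10 kinase genes) was 4.25% to 9.42% in 7 libraries and 0.398% to 1.21% in the other 9. The 7 libraries over 4% were replicates 1 and 2 at 45 min, replicates 1 and 2 at 135 min, and replicates 1, 3 and 4 at 405 min, and they held 1385229 to 19930375 fragments. The 9 others included all 4 controls and held 570323 to 1469951. The summed level of 8 fibroblast marker genes was 3415 to 20160 CPM (fragments of a gene scaled to a total of 1000000 per library) in the 7 and 215.1 to 1555 CPM in the 9, while olfactory and vomeronasal receptor genes took 0.00531% to 2.61% and 4.14% to 5.12% of fragments. The 4 neural markers summed to 1.05 to 122 CPM in the 7 and 135.3 to 237.9 CPM in the 9, the 4 epithelial markers to 0 to 78.7 and 88.1 to 172.3 CPM, and the 4 blood markers to 0 to 20.7 and 19.7 to 110.5 CPM, with both globin genes at 0 throughout. Because no control passed 4%, drug and control could not be compared among libraries of the first kind, and the part of library composition in any difference from control cannot be told apart from the drug. The libraries nearest the threshold were 405 min replicate 3, at 4.25%, and control replicate 2, at 1.21%. All libraries were made from the same cell line, and the source of the higher receptor, neural, epithelial and blood marker values in the 9 was not tested.

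Across all 16 libraries, Snhg1, Gas5 and Snhg5 were higher in each 405 min library than in each control. They were also higher in each of the 7 libraries over 4% than in each of the 9 others. So were 11.5% of the 5030 genes with a fragment in every library, which leave out Snhg1. Snhg12 was highest in 2 of the 405 min libraries. Snhg7 and Snhg8 were low in all groups, and Snhg3 was nearly undetected.

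Snhg1 is a host of box C/D snoRNAs, and its spliced transcript has been linked to the p53 pathway. The controls had 4, 12, 0 and 0 fragments, or 4.52, 13.9, 0 and 0 CPM. At 45 min Snhg1 was at 240.1 and 134.9 CPM in replicates 1 and 2 and at 0 in replicates 3 and 4. At 135 min the 4 libraries were at 110.7, 667.8, 14.0 and 5.68 CPM, and at 405 min at 636.9, 33.8, 111.2 and 1884 CPM. All 405 min libraries lay above all controls, and the 2 lower libraries at 45 min had no fragment, which with 3 fragments as the limit allows up to 2.04 and 4.81 CPM.

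Gas5, growth arrest-specific 5, is the host with the most snoRNA copies and a textbook TOP transcript that is degraded when it is translated. It was detected in all 16 libraries. The controls were at 67.8, 51.1, 24.7 and 2.31 CPM, and the 45 min libraries at 380.3, 272.5, 14.97 and 91.3 CPM. At 135 min Gas5 stood at 308.5, 514.9, 94.7 and 22.7 CPM, and at 405 min at 239.5, 85.8, 414.4 and 1216 CPM. Only the 405 min group lay wholly above the controls. The lowest 405 min library, replicate 2, was the single one of that group under 4%.

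Snhg5 hosts copies of the box C/D snoRNA U50. Its controls were at 5.65, 19.7, 3.37 and 2.31 CPM, from 2 to 17 fragments. At 45 min it was at 38.8, 32.1, 5.44 and 12.8 CPM, at 135 min at 300.6, 131.3, 5.26 and 1.14 CPM, and at 405 min at 196.1, 22.1, 180.5 and 308.1 CPM. The 405 min libraries again lay above all controls, with the nearest pair at 22.1 CPM (95% Poisson interval 12.9 to 35.4, counting error only) and 19.7 CPM (11.5 to 31.6), which overlap.

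Snhg12 hosts 3 H/ACA snoRNAs and 1 box C/D snoRNA. It had fragments in 1 control only, replicate 3, at 13.5 CPM from 12 fragments. It was at 18.2, 8.84, 20.4 and 9.61 CPM at 45 min, at 14.9, 33.9, 3.51 and 2.27 CPM at 135 min, and at 204.6, 5.20, 19.5 and 191.7 CPM at 405 min. The 2 libraries near 200 CPM were 405 min replicates 1 and 4, and the other 14 lay at or below 33.9 CPM.

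Snhg7, an H/ACA host, was as high in some controls as after the drug. It was at 26.0, 0, 2.24 and 17.3 CPM in controls and at 11.7, 2.60, 13.7 and 15.5 CPM at 405 min, with 0 to 12.8 CPM at 45 min and 0 to 5.82 CPM at 135 min. Snhg8 had 0 to 10.1 CPM in controls, 3.20 to 25.5 CPM at 45 min, 0 to 10.1 CPM at 135 min and 2.60 to 43.4 CPM at 405 min. For both genes the groups overlapped.

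Snhg3 had 31 fragments in total, spread over 5 libraries, and none in any control or 135 min library. Its H/ACA snoRNAs belong to the Snora73 family. It shares 135 exon bases with Rcc1 on the same strand and 705 with Gm17300 on the opposite strand, and whether counting used strand is not given in the sources used here, so its few fragments are not assigned with certainty. No fold change is given for it.

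**Figure D1:**
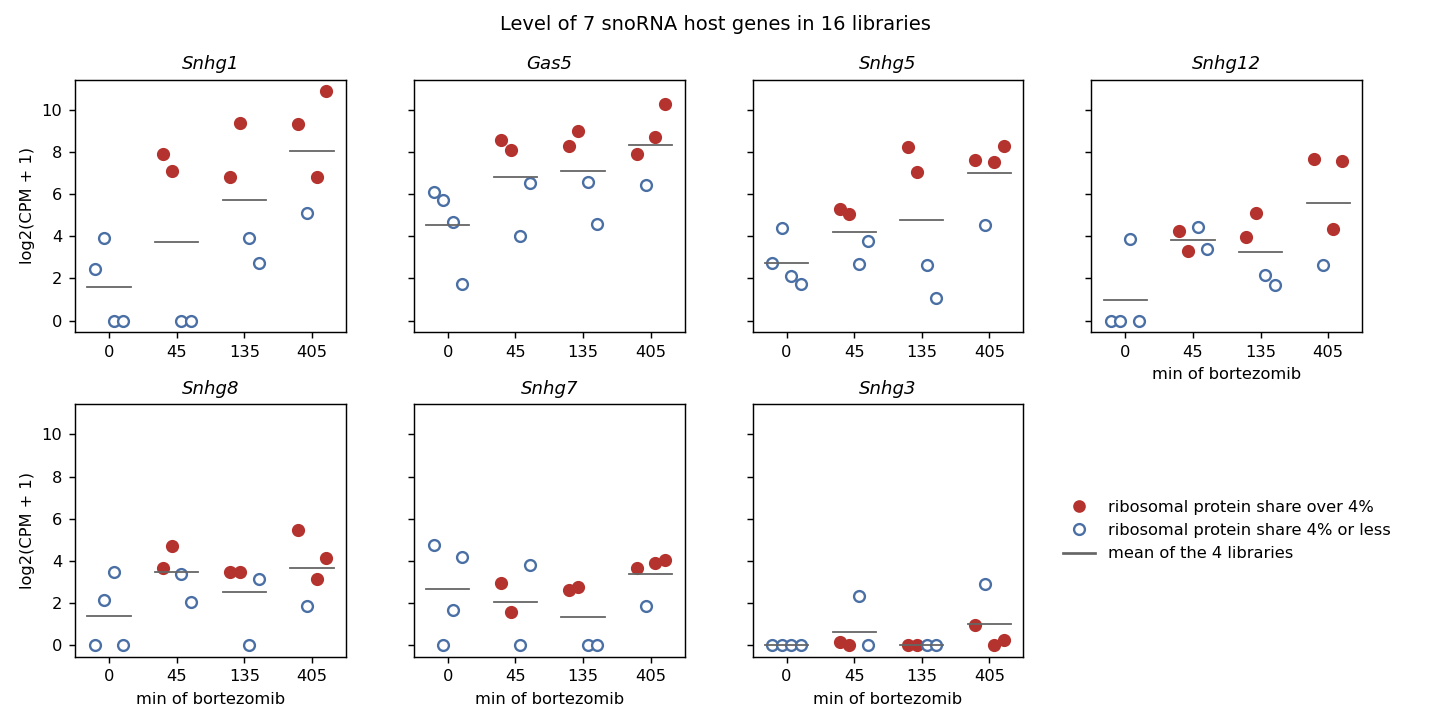
Level of each host gene, as log2(CPM + 1), in the 16 libraries by minutes of bortezomib; filled red points are the 7 libraries with a ribosomal protein share over 4%, open blue points the other 9, and grey lines the mean of 4 libraries. All controls are open points, and Snhg1, Gas5 and Snhg5 separate the filled from the open points.

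Differences from control were fitted with edgeR's quasi-likelihood test over all genes with at least 1 fragment in each of the 16 libraries. Gas5 and Snhg5 passed that filter and the other 5 hosts did not. Gas5 had a log2 fold change of 4.22 (SE 1.34) at 405 min, 2.93 (SE 1.26) at 135 min and 2.80 (SE 1.25) at 45 min. Snhg5 had 4.92 (SE 1.41), 4.23 (SE 1.37) and 1.93 (SE 1.27) at the same times. The 3 comparisons share the control libraries. Among the 9 libraries of 4% or less, drug and control libraries were of 1 kind, with 1 library at 405 min. The SE there holds no replicate spread of that time. In these 9 libraries Gas5 had 1.23 (SE 1.12) at 405 min, 0.49 (SE 0.93) at 135 min and 0.50 (SE 0.93) at 45 min. Snhg5 had 1.501 (SE 1.12) at 405 min, from 1 library, -1.47 (SE 1.15) at 135 min, with the sign turned, and 0.18 (SE 0.98) at 45 min. The median over the 5030 genes tested was 0.11 at 405 min. In a fit without the filter Snhg1 had a log2 fold change of 8.50 (SE 2.47) at 405 min, Snhg12 6.48 (SE 1.65), Snhg8 3.89 (SE 1.72) and Snhg7 1.18 (SE 1.80). For Snhg1, Snhg12 and Snhg8, 2 or 3 of the 4 controls were at 0, so these sizes rest on few control fragments. The median over the 22359 genes of that fit was -0.31. Mean CPM of Snhg7 was 11.4 in controls and 10.9 at 405 min, so its positive fitted value was not seen in CPM. How far the scaling of that fit moved these sizes was not tested.

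No gene was called at 405 min against control at an adjusted p under 0.05 with edgeR (Benjamini-Hochberg), which is 0% of 5030 genes, while 728 higher and 76 lower genes had p under 0.05 before adjustment. DESeq2 called 352 of the same genes, or 7.0%, and both tested hosts were among them. It called 4.45% of genes at 45 min, neither host among them, and 0.159% at 135 min, with Snhg5. Because the hosts were chosen with these comparisons known, nothing is read from those calls. By a plainer count, 3 of the 7 hosts (Snhg1, Snhg5 and Gas5) had every 405 min library above every control. Of all genes tested, which leave out Snhg1 because it lacked fragments in some controls, 6.86% did. The figure was 1.37% at 45 min and 2.47% at 135 min, where no host did so.

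Expressed per 1000 ribosomal protein fragments of the same library, the comparison with control looked different. Snhg1 was at 0 to 1.15 in controls and at 2.61 to 21.9 at 405 min, and Snhg5 at 0.581 to 1.63 and 2.44 to 4.24, so these 2 of the 7 hosts still lay above all controls. On that scale 0.338% of all genes tested did, a set that leaves out Snhg1. Gas5 overlapped, at 0.581 to 12.5 in controls and 3.53 to 14.2 at 405 min. Snhg7 stood at 0 to 4.80 in controls and 0.173 to 0.322 at 405 min, and Snhg8 at 0 to 2.29 and 0.187 to 0.640, and Snhg12 at 0 to 3.05 and 0.458 to 3.02, so the highest control of each of them exceeded every 405 min library. The ribosomal protein share itself differed between the groups, and its part in these differences was not tested.

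**Figure D2:**
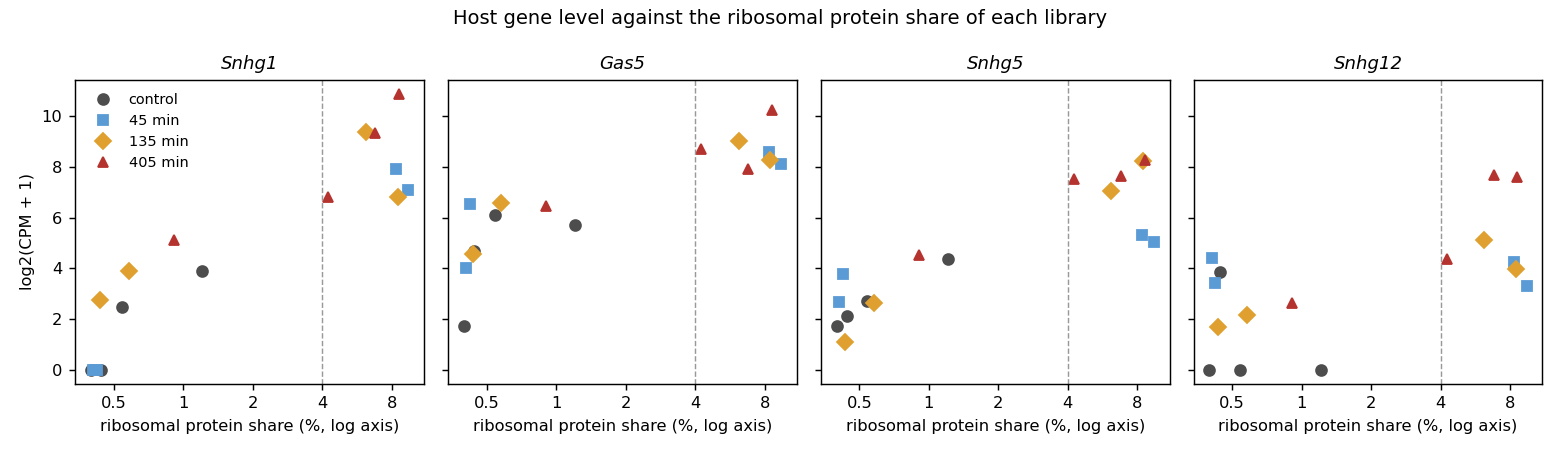
Level of 4 host genes as log2(CPM + 1) against the ribosomal protein share of the same library in percent (log axis), with symbols for the time and a dashed line at 4%. No library lies between 1.21% and 4.25%, and for Snhg1, Gas5 and Snhg5 all points to the right of the line are above all points to the left.

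Over the 16 libraries, Pearson's r between log2(CPM + 1) and log2 of the ribosomal protein share was 0.92 for Snhg1, 0.89 for Snhg5, 0.85 for Gas5, 0.68 for Snhg8, 0.63 for Snhg12, 0.30 for Snhg7 and -0.17 for Snhg3. Among the hosts, r was 0.88 between Snhg1 and Gas5, 0.86 between Snhg5 and Gas5 and 0.78 between Snhg8 and Snhg12, and it ran from -0.23 to 0.41 for every pair that included Snhg3 or Snhg7. The libraries form 2 clusters by composition, and the 2 measures of a point come from the same library and its total, so these values describe that split. The genes most like the mean of the 7 hosts, among the other 5028 that passed the filter, were Prrc2c (r = 0.96), Hspa8 (0.95), Timp3 (0.95), Dst (0.95) and Hspa4l (0.95), over the same 16 libraries. Hspa8, which encodes the constitutive Hsp70 chaperone, is itself a snoRNA host.

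Within the 7 libraries over 4% the time course could be read from 45 to 405 min without crossing the 4% line. These libraries still differed in composition. The receptor genes took 0.00531% and 0.225% of fragments at 45 min and 0.337%, 2.61% and 0.00671% at 405 min. Genes without a fragment made up 5.65% to 49.5% over the 7. The part of composition in the course was not tested. From 45 to 405 min, Snhg12 and Snhg5 differed most, Snhg1 and Snhg7 less, and Gas5 and Snhg8 least. By length-scaled level (FPKM, the authors' values), Snhg1 was the highest of the 7 hosts in each of these libraries, at 367 to 8700, and Snhg3 the lowest, at 0 to 4.87. Snhg5 (median 195.8 FPKM) and Gas5 (152.9) followed and exchanged places between libraries, as did Snhg12 (60.0), Snhg8 (24.0) and Snhg7 (16.1). The order depends on the length used. By CPM per 1000 bases of annotated exon on NCBIM37, Snhg5 (median 181.8) and Gas5 (101.2) came before Snhg1 (81.5), and Snhg8 has no length there.

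Snhg12 stood at 18.2 and 8.84 CPM at 45 min, at 14.9 and 33.9 CPM at 135 min, and at 204.6, 19.5 and 191.7 CPM at 405 min. All 3 later libraries lay above both early ones, although replicate 3 at 405 min, which also had the lowest ribosomal protein share of the 7, did so by 19.5 against 18.2 CPM from 27 and 334 fragments. The mean was 10.3 times that at 45 min, and 14.7 times without that library. The fitted log2 fold change was 3.41 (SE 1.01), and 3.92 (SE 0.67) without it.

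Snhg5 was already high at 135 min. It stood at 38.8 and 32.1 CPM at 45 min, at 300.6 and 131.3 CPM at 135 min and at 196.1, 180.5 and 308.1 CPM at 405 min. Both 135 min libraries and all 405 min libraries lay above both early ones, and the later times overlapped. The log2 fold change was 2.57 (SE 0.75) from 45 to 135 min, 0.16 (SE 0.65) from 135 to 405 min and 2.73 (SE 0.72) over the whole span.

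Snhg1 stood at 240.1 and 134.9 CPM at 45 min, at 110.7 and 667.8 CPM at 135 min and at 636.9, 111.2 and 1884 CPM at 405 min. The groups overlapped because replicate 3 at 405 min lay below both 45 min libraries. The log2 fold change from 45 to 405 min was 2.34 (SE 1.19) and, without that library, 2.87 (SE 0.96). Without it both remaining 405 min libraries lay above both 45 min ones, and the ratio of means went from 4.68 to 6.72.

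Snhg7 was low but its 405 min values were close together, at 11.7, 13.7 and 15.5 CPM, from 178, 19 and 309 fragments. They lay above the 45 min libraries (6.75 and 1.96 CPM) and the 135 min libraries (5.07 and 5.82 CPM), for a log2 fold change of 1.67 (SE 1.01) from 45 to 405 min. Gas5 overlapped at all times, at 380.3 and 272.5 CPM at 45 min against 239.5, 414.4 and 1216 CPM at 405 min, with a log2 fold change of 1.03 (SE 0.84). Snhg8 stood at 11.9 and 25.5 CPM at 45 min, at 10.1 CPM in both 135 min libraries and at 43.4, 7.94 and 16.5 CPM at 405 min, with a log2 fold change of 0.25 (SE 0.88). It was the only host with both 135 min libraries below both 45 min ones.

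**Figure D3:**
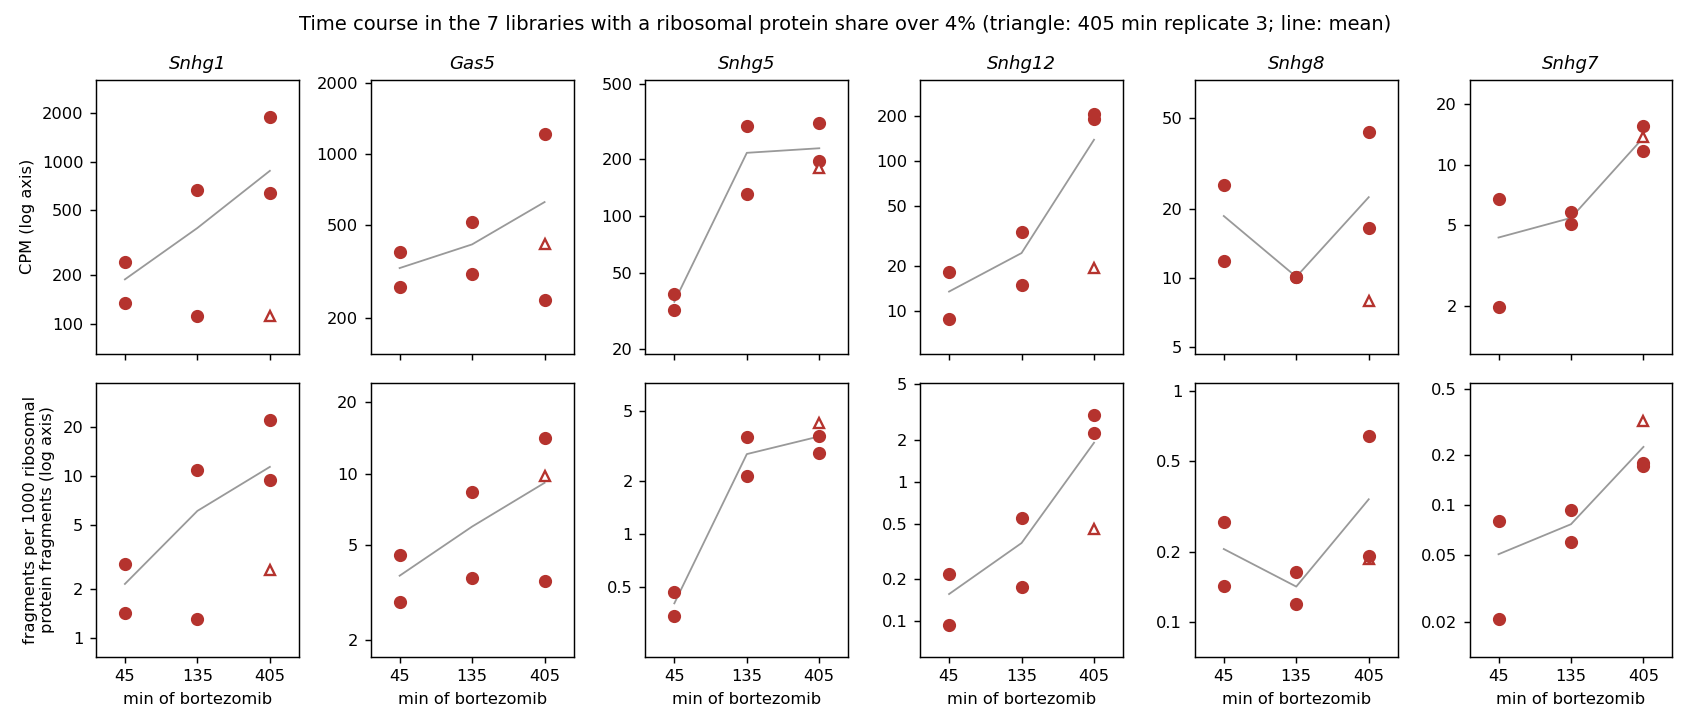
Time course of 6 hosts in the 7 libraries with a ribosomal protein share over 4%, in CPM (top) and as fragments per 1000 ribosomal protein fragments (bottom), both on log axes; points are libraries, the open triangle is 405 min replicate 3 and the line joins means. Snhg12, Snhg5 and Snhg7 have all 405 min points above both 45 min points on both scales.

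In this comparison, 3 of the 7 hosts (Snhg5, Snhg7 and Snhg12) had every 405 min library above every 45 min library. Of the 8605 genes with a fragment in each of the 7 libraries, 9.24% did. Without 405 min replicate 3 the counts were 5 of 7, with Snhg1 and Snhg3 added, and 18.1% of genes. Snhg3 is not among those genes, and it had 2 and 0 fragments at 45 min beside 14 and 4. Per 1000 ribosomal protein fragments it was the same 3 hosts, and 15.9% of genes. From 45 to 135 min, Snhg5 alone among the hosts had every later library above, beside 19.8% of genes, and from 135 to 405 min Snhg7 alone, beside 4.78%. Without 405 min replicate 3 the latter count was 4 of 7, beside 20.7%, with Snhg8 and Snhg12 added and with Snhg3, which had 0 fragments in both 135 min libraries and so counts as above only against 0. All 6 hosts that passed this filter had a positive log2 fold change, as did 55.7% of all genes tested. The median was 2.01 for these hosts and 0.14 over all genes tested. With edgeR 0 of the 8605 genes (0%) had an adjusted p under 0.05, and before adjustment 259 higher and 357 lower genes had p under 0.05. The spread between libraries in this fit corresponded to a biological coefficient of variation of 68.2%, with 4 residual degrees of freedom.

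Among the 9 libraries of 4% or less, the hosts were near the limit of counting, with 11 to 347 fragments each over all 9. The 1 library of that kind at 405 min, replicate 2, had the most Snhg1 (26 fragments, 33.8 CPM) and the most Snhg5 (17 fragments, 22.1 CPM) of the 9. It also had the most Snhg3 (5 fragments, 6.50 CPM). The other hosts were higher elsewhere among the 9. Gas5 was at 85.8 CPM in this library beside up to 94.7 CPM, and Snhg12 at 5.20 beside up to 20.4 CPM. Snhg7 was at 2.60 beside up to 26.0 CPM, and Snhg8 at 2.60 beside up to 10.1 CPM. This library had the second highest ribosomal protein share among the 9, at 0.907%, after control replicate 2. With 1 library these differences have no replicate check.

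The other long noncoding snoRNA hosts gave mixed values. Of 15 such genes, 9 had a fragment in each of the 7 libraries over 4%, none was called, and 6 had a positive log2 fold change from 45 to 405 min, with a median of 0.30. Without 405 min replicate 3, 4 of the 9 were positive and the median was -0.002, so its sign turned with that library. The highest was Snhg11, at 2.97 (SE 1.94), which rested on 405 min replicate 3 (86.6 CPM beside 3.48 and 0.552 CPM in the other 405 min libraries) and stood at 49.7 to 116.3 CPM in the 9 libraries of 4% or less. Without that library the highest was Zfas1 (1500012F01Rik in the tables), at 2.23 (SE 0.67). The lowest was Dancr, at -1.47 (SE 0.91). Chosen after their values were seen, Zfas1, Snhg17 (9430008C03Rik) and Snhg15 (Gm11974) had every 405 min library above both 45 min libraries. Of the 8605 genes tested, 9.24% did. Snhg16 (1810032O08Rik), which is not among those genes, did so too, at 1.41 and 0 CPM at 45 min and 39.7, 18.8 and 5.92 CPM at 405 min. Zfas1 went from 79.7 and 119.5 CPM at 45 min over 218.4 and 183.3 CPM at 135 min to 294.8, 407.9 and 586.4 CPM at 405 min, with a log2 fold change of 2.14 (SE 0.69). Snhg17 was at 13.6 and 14.9 CPM, then 50.7 and 48.3 CPM, then 69.5, 83.7 and 48.2 CPM, a log2 fold change of 2.22 (SE 0.60). Snhg15 was at 40.8 and 53.2 CPM, then 149.3 and 91.9 CPM, then 102.8, 123.4 and 198.8 CPM, a log2 fold change of 1.63 (SE 0.65). Snhg6, Rian and Epb41l4aos (2410004N09Rik) lay between -0.03 and 0.30.

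**Figure D4:**
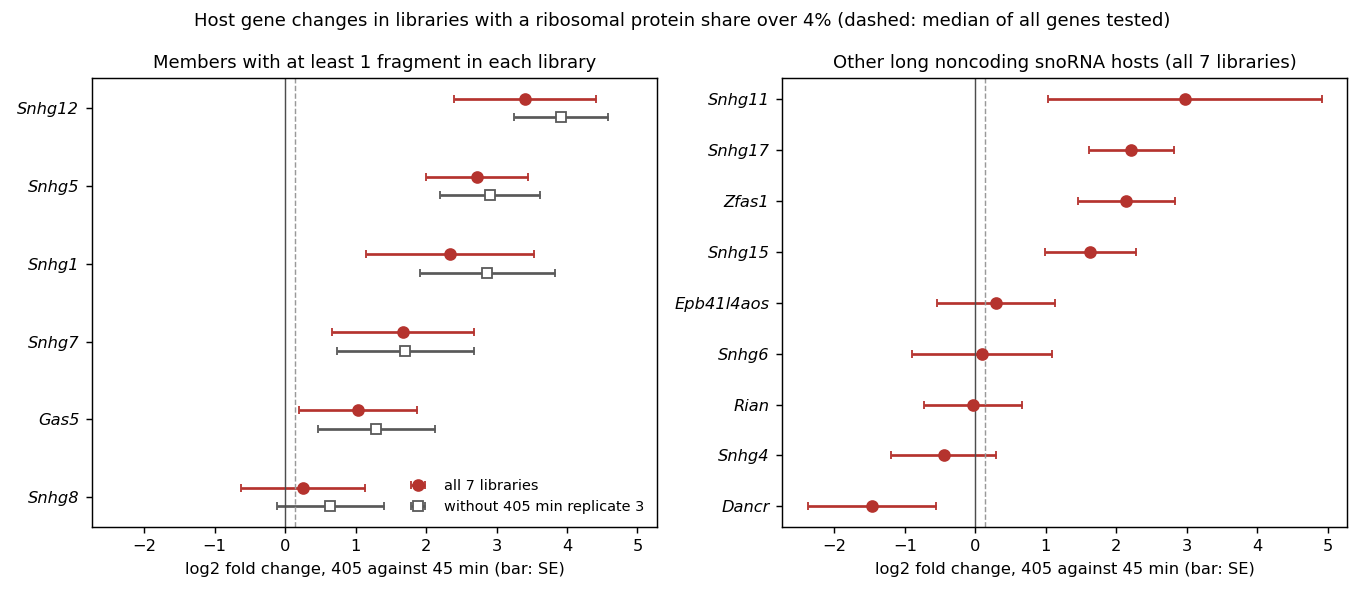
Log2 fold change from 45 to 405 min, with its SE, in the libraries with a ribosomal protein share over 4%, for the 6 hosts that passed the filter (left, with and without 405 min replicate 3) and the 9 other long noncoding snoRNA hosts (right). Snhg12 is highest on the left at 3.41, and on the right Snhg11, Snhg17, Zfas1 and Snhg15 lie to the right of the dashed median of all genes at 0.14, clear of 5 others that lie between -1.47 and 0.30.

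Genes that make or use snoRNAs and genes with similar starts were set beside the hosts, in the same libraries and comparison. None of them was called by edgeR. Of all genes tested, 55.7% had a positive log2 fold change, and 51.2% did without 405 min replicate 3. Of 21 tested protein-coding snoRNA hosts outside the ribosomal proteins, 12 had a positive log2 fold change and the median was 0.23. Hspa8 was the highest, at 2.403 (SE 1.299), and Dkc1, the pseudouridine synthase of H/ACA particles, the lowest, at -1.17 (SE 0.64). Of the 14 tested TOP genes outside the ribosomal proteins, 5 were positive, with a median of -0.10, from Eef2 (1.667, SE 1.495), an elongation factor, to Tpt1 (-0.81, SE 0.84). Of 82 genes tested under the ribosomal protein pattern, 29 were positive and the median was -0.28. Their highest gene by that pattern, Rps6ka2 (3.42, SE 0.95), is a kinase and not a ribosomal protein, and the lowest was Rpl22 (-1.18, SE 0.76). Without 405 min replicate 3 the TOP median was 0.27 and the ribosomal protein median 0.07, so the sign of both turned with that library.

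The core proteins of the snoRNA particles were split. All 4 box C/D proteins were positive, from Snu13 (Nhp2l1 in the tables, 0.20, SE 0.87) to Nop56 (0.60, SE 0.87), with a median of 0.41. Of the 4 H/ACA proteins 1 was positive, Nhp2 (0.821, SE 0.999), and Nop10 was lowest, at -2.54 (SE 0.71), with 69.6 and 100 CPM at 45 min and 4.33 to 19.7 CPM at 405 min. Of 8 tested assembly factors 5 were positive (median 0.23), from Naf1 (-0.49, SE 0.58) to Shq1 (1.82, SE 1.04). Of the 4 exon junction proteins 2 were positive (median 0.19), from Magoh (-1.04, SE 0.73) to Casc3 (0.46, SE 0.72). All 10 nonsense-mediated decay factors were positive, with a median of 0.94, from Upf2 (0.16, SE 0.60) to Smg5 (1.86, SE 1.17). Upf1, the central helicase of that pathway, had 1.69 (SE 0.74). Without 405 min replicate 3, 9 of the 10 were positive, and Upf3b was at -0.47 (SE 0.82).

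Against control at 405 min, edgeR called no gene of these lists either. Of all 5030 genes tested, 53.1% had a positive log2 fold change, with a median of 0.11. The tested TOP genes had a median log2 fold change of 3.92 (11 of 11 positive), the ribosomal protein pattern 3.51 (55 of 60), the protein-coding hosts 3.29 (16 of 16), the box C/D proteins 2.56 (4 of 4), the H/ACA proteins 1.85 (2 of 2), the exon junction proteins 1.25 (1 of 2), the assembly factors 0.84 (3 of 4) and the decay factors 0.75 (4 of 6). The only tested long noncoding host outside the 7, Snhg11, had -1.41 (SE 1.24). The highest and lowest in each were Eef1a1 (5.05, SE 2.10) and Eef1d (2.25, SE 1.09) among TOP genes, Rpl8 (4.97, SE 1.20) and Rps6ka2 (-0.46, SE 0.84) in the ribosomal protein pattern, and Hspa8 (6.69, SE 1.96) and Ap1g1 (0.39, SE 0.61) among protein-coding hosts. For the particle proteins they were Nop58 (3.91, SE 1.41) and Fbl (0.76, SE 0.63) for box C/D and Dkc1 (2.46, SE 1.25) and Nop10 (1.24, SE 1.03) for H/ACA. For the other lists they were Nufip1 (1.64, SE 0.98) and Shq1 (-0.72, SE 0.85), Upf3b (2.31, SE 1.13) and Smg6 (-0.51, SE 0.48), and Rbm8a (2.54, SE 0.80) and Casc3 (-0.04, SE 0.85). The ribosomal protein share separates the 2 kinds of library, as do Snhg1, Snhg5 and Gas5 of the 7 hosts, and no control is of the first kind. Drug and library kind cannot be told apart here.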

How the data were processed

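Total RNA for 16 libraries was extracted with a QIAGEN kit, made into libraries with a NuGEN Encore Complete kit (per the labels) and sequenced on an Illumina HiSeq. According to the study's methods, reads were aligned to mm9 and assigned to RefSeq genes on DNAnexus, while the submitters' processing notes name mm10. The tables carry no coordinates, and the aligner is not given in the sources used here. The authors deposited, per library, estimated counts (raw fragments) and FPKM values for 23356 genes. Between 97.9% and 99.4% of the estimated counts were whole (tolerance 1e-06), and all were rounded. In the table of 1 library, dates had replaced 27 symbols, which were restored from the row order of the others. No 2 libraries were identical. Fragments totalled 570323 to 19930375 per library.

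CPM was computed over all fragments, with a pseudocount of 1 on the log2 scale. FPKM served only to order the hosts within a library. edgeR 4.0.16 (R 4.3.3) was run with TMM factors and 1 mean per group on genes with at least 1 fragment in all libraries fitted, with Benjamini-Hochberg adjustment. SE is the log2 fold change over the square root of F. Hosts that failed the filter took their value from the same fit without it. Alternatives were RLE factors, DESeq2 1.42.0, filterByExpr, no filter, a replicate block, libraries over or under the 4% share, a pseudocount of 0.1, scaling per ribosomal protein fragment and leaving out each library. The fit without 405 min replicate 3 among the libraries over 4% was added after the data had been seen. The script was tested on simulated counts.

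The hosts and the lists beside them were chosen with earlier results of these data known. Named from each list were called genes (at most 5 a direction) or, with none called, the highest and lowest log2 fold change at 405 min against control and, over 4%, against 45 min. The 5 most similar genes have the highest Pearson r with the mean of the hosts. Positions are from GENCODE M1 on NCBIM37, and start windows from RefSeq on GRCm38.p6, where all 7 hosts matched. Intervals (95%, Poisson) and limits (3 fragments) cover counting error only, since PCR copies are not independent molecules.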

Additional observations from a re-analysis of the deposited data

Results flagged for a closer look

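In each group of 4 libraries, the host levels as log2(CPM + 1) and the ribosomal protein share were checked for a single library far from the other 3 by Dixon's ratio. Of 30 such groups 3 passed it. The usual rate of about 1 in 20, or 1.5 here, assumes continuous values. It is no reference here, since each of the 3 flagged groups holds a library at 0. Snhg3 was at 2.35 in 45 min replicate 3, from 6 fragments, beside 0 to 0.149 in the others at that time. Snhg8 was at 0 in 135 min replicate 3, beside 3.16 to 3.48. Snhg12 was at 3.85 in control replicate 3, from 12 fragments, beside 0 in the other controls.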

How the results depend on the processing

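With edgeR no gene was called in any of the 6 comparisons, and this held with RLE factors, the replicate block (0 calls), libraries over 4%, and all 16 fits that each left out 1 library (0 to 0 calls). Against control, DESeq2 called 224 (45 min), 8 (135 min) and 352 (405 min) genes, and it called 5 at 405 against 45 min. Without a filter on low counts, edgeR called 1 gene at 405 min against control, 2 against 45 min and 2 against 135 min, and with filterByExpr 1, 2 and 1. Among libraries of 4% or less it called 2, 2 and 1 in the same comparisons, where the 405 min arm is 1 library that is assumed to vary like the others. The cause of each change was not tested.

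The fitted log2 fold changes of the hosts other than Snhg3 kept their sign in 795 of 819 values under alternatives and moved by less than 1 SD between replicates in 794. Most alternatives left out 1 library, often one outside the 2 groups compared, and that SD takes in the split between library kinds. The tally is therefore no measure of how firm the values are. For Gas5 at 405 min against control the values ran from 1.23 to 5.12, for Snhg5 from 1.501 to 5.96 and for Snhg1 from 2.87 to 11.5. The lowest values of Gas5 and Snhg5 were those among libraries of 4% or less. Comparisons in which a group had no fragment of a host gave no value. The replicate numbers do not mark shared cultures in the labels. Same-numbered libraries of different groups had deviations correlated from -0.76 to 0.61 (mean 0.07 over 24 pairs, 14 above 0.1), so the numbers were not taken as pairs. Depth limits low hosts, since 3 fragments correspond to 0.151 to 5.26 CPM over the 16 libraries (3.37 to 3.48 CPM in controls) and to most in 135 min replicate 3.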
